A study of Homo sapiens with 6 samples.

Results

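Chemokines and their receptors were examined in RKO, an established human colon carcinoma line. Probe sets belonged here when their gene symbol was that of a numbered chemokine ligand (CCL, CXCL, CX3CL, XCL) or receptor (CCR, CXCR, CX3CR, XCR, ACKR); the rule used no measured value. It kept 59 of 1259 probe sets, standing for 52 of 927 named genes: 36 ligands on 42 probe sets and 16 receptors on 17. No gene with an ACKR symbol was among them. The symbol rule passes over family members with other names, and of these PF4 and PPBP, both platelet chemokines, were measured.

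The RNA came from 2 populations, each on 3 arrays numbered 1 to 3. The sample titles add a tag in the form of a day and month that is the same for same-numbered arrays of both populations and different for each number. RKO C2 is a clonal population of the line. RKO C2 F3, called F3 here, was obtained from C2 by fluorescence-activated sorting of cells low in u-PAR, the urokinase receptor, and was studied to find which glycosylation enzyme fails when u-PAR does not mature. Both populations thus share the RKO background and the C2 clone, neither carries a stated added gene, and no agent was applied according to the labels. F3 is a single derivative, called clonal in its labels and a population in the series' design text, and the labels do not say what the tag marks or whether a population's 3 arrays had cultures of their own. The p-values below therefore measure only how far these samples spread, and that spread may be technical.

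Chemokines are small secreted proteins that guide cells by binding G protein-coupled receptors. CC and CXC ligands are named for the spacing of their first cysteines. Many epithelial chemokines are made at low levels at rest and are induced through NF-kB by cytokines such as TNF and interleukin-1, while most of the receptors are best known on leukocytes. Secreted chemokines are held at cell surfaces by heparan sulfate, and several receptors carry sulfated tyrosines that add to ligand binding.

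Expression is given as log2 values from RMA, the authors' normalization, 1 per probe set and array. Array medians ran from 5.48 to 5.51, and any pair of arrays correlated over probe sets with r between 0.9981 and 0.9992. The values carry no detection call. The dim range was therefore defined as the lower part of the table, up to the median over all probe sets of the mean over 6 arrays, 5.50. Probe sets differ in how strongly they bind their target, so a brighter signal for one gene than for another does not measure more RNA, and a signal in the dim range does not show absence. As a yardstick, 20 leukocyte marker genes were measured on the same arrays. Of these, 2 also lay above 5.50, SIGLEC1, the brightest at 5.80, and KLRD1. KLRD1 had 2 probe sets, at 5.78 and 3.00, and only the brighter lay above 5.50. Of 3 measured epithelial markers, MUC1 lay above the edge at 7.11, and MUC2 and LGALS4 lay below it at 5.13 and 4.71. Defining epithelial markers such as EPCAM and the keratins were not analysed here, so the tissue label could be checked only in part.

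Most of the family was dim. The median of the 59 probe sets was 3.95, against 5.92 for the 984 named probe sets outside the family. Above the edge lay 5 probe sets, or 8.47%, against 50.0% of the whole table by construction. These were CCL25, CCL3 and CCL24 among the ligands and CCR10 and CXCR1 among the receptors. All 6 arrays of each of the 5 lay above the edge, and none of the 59 reached the 75th percentile of the table, 7.77. At the other end, 29 probe sets, or 49.2%, lay below the 25th percentile of the table, 3.80. The members next to the edge were CCL24 at 5.63 on the upper side and CCL17 and CXCR3 at 5.49 each on the lower side. The arrays of CCL17 spanned 5.42 to 5.57, those of CXCR3 5.43 to 5.55 and those of XCR1 5.36 to 5.58, so these 3 probe sets straddled the edge. XCR1 had its C2 mean of 5.44 below the edge and its F3 mean of 5.53 above it. Only CCL25, CCR10 and CXCR1 were brighter than the brightest leukocyte marker probe set.

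**Figure D1:**
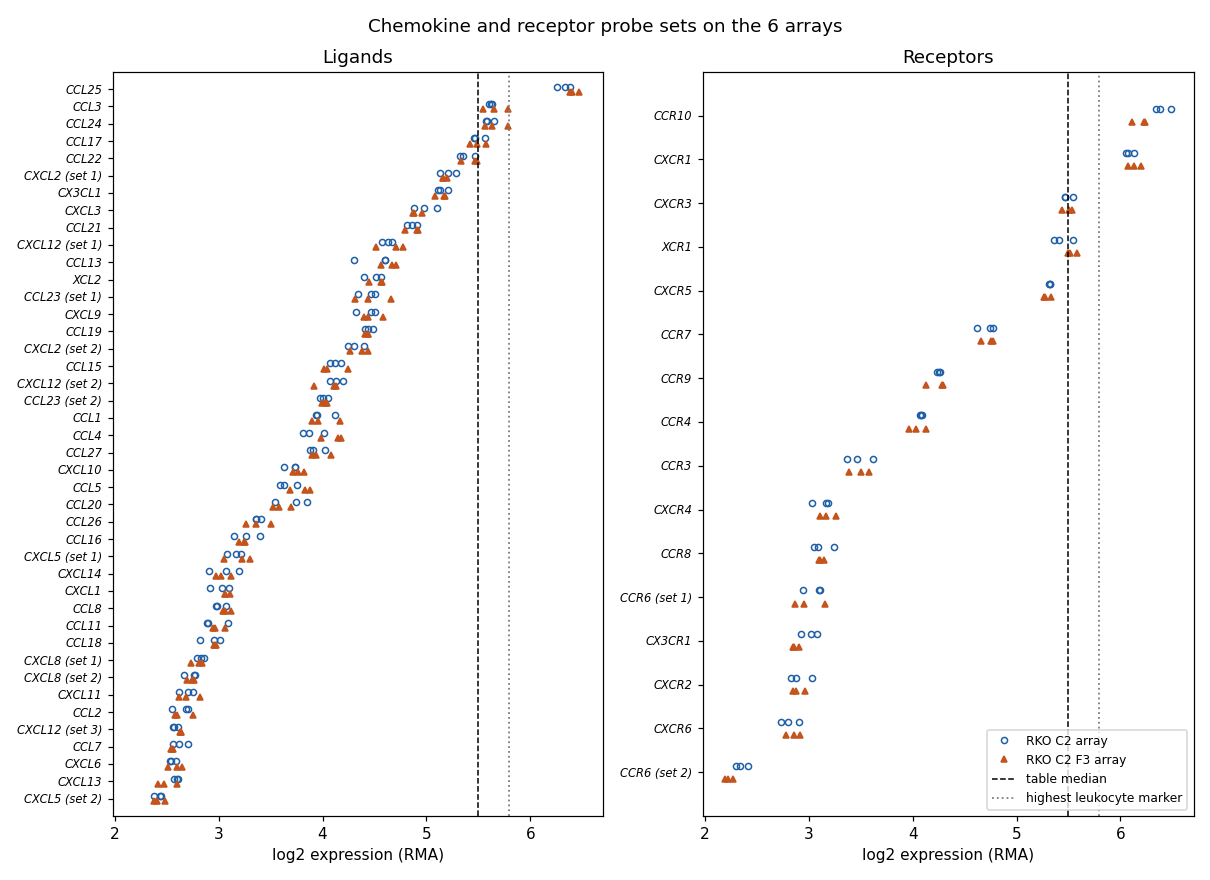
Log2 expression of ligand probe sets (left) and receptor probe sets (right), 58 in all, on each of the 6 arrays, with open circles for RKO C2 and triangles for RKO C2 F3; genes with several probe sets are numbered from the brightest. The dashed line is the table median of 5.50 and the dotted line the brightest leukocyte marker at 5.80, which only CCL25, CCR10 and CXCR1 exceed. The arrays of the 2 populations overlap for all but 4 probe sets, or 6.78% of the family's 59, against 10.3% of the whole table.

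The CC ligands held the 3 ligands above the edge. CCL25, the thymus and small intestine chemokine that draws CCR9-bearing lymphocytes, had log2 levels of 6.26, 6.33 and 6.38 in C2 and 6.38, 6.47 and 6.40 in F3. The F3 mean was the higher, but its lowest array and the highest C2 array both rounded to 6.38, so the populations overlapped. The change was 0.10 (SE 0.06, 95% interval -0.03 to 0.22), with a limma adjusted p of 0.966; without C2 replicate 1 it was 0.06. CCL3, an inflammatory ligand of CCR1, was at 5.62, 5.63 and 5.60 in C2 and 5.78, 5.54 and 5.65 in F3. CCL24, an eotaxin that attracts eosinophils through CCR3, was at 5.65, 5.58 and 5.57 in C2 and 5.63, 5.79 and 5.57 in F3. For both genes the F3 arrays spread around the C2 arrays on either side, and the changes were 0.04 (SE 0.07) and 0.06 (SE 0.07). Without F3 replicate 2 the CCL24 change was 0.00095, and without F3 replicate 3 it was 0.11. The CCL3 probe set carries a suffix (_s_at) that Affymetrix uses for sets shared by several transcripts, and CCL3 has near-identical copies, so its signal is not assigned to CCL3 alone. The remaining CC ligands reached from 2.59 for CCL7 to 5.49 for CCL17, and 11 of the 23 CC ligand probe sets were below 4.

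None of the 17 CXC ligand probe sets left the dim range, and 11 were below 4. Their median was 3.05. CXCL8, the neutrophil chemokine also called interleukin-8, was measured by 2 probe sets. The first had 2.79, 2.83 and 2.86 in C2 and 2.81, 2.84 and 2.74 in F3, and the second had 2.77, 2.76 and 2.66 in C2 and 2.74, 2.70 and 2.76 in F3. Both were in the lowest part of the table, at its percentiles 7.78 and 6.51, and their changes were -0.029 and 0.00074. Other neutrophil chemokines that act on CXCR2 were spread over the dim range. CXCL1 was at 3.05, CXCL5 at 3.17 and 2.42 on 2 probe sets, CXCL6 at 2.57, CXCL3 at 4.94, and CXCL2 at 5.19 and 4.34 on 2 probe sets. CXCL1, CXCL2 and CXCL3 are close paralogs and the probes were not compared with their transcripts, so signal shared among the 3 cannot be told apart. The interferon-induced ligands of CXCR3 had 4.45 for CXCL9, 3.73 for CXCL10 and 2.70 for CXCL11. CXCL14, which many epithelia make, was at 3.05. The membrane-bound ligand CX3CL1 and the C-type chemokine XCL2 were at 5.15 and 4.51.

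The neutrophil chemokine genes CXCL1, CXCL2, CXCL3, CXCL5 and CXCL6 share a promoter element, shown here because it matches the NF-kB consensus and NF-kB is known to induce such genes. RefSeq promoter sequences of GRCh38.p14 (250 bases before each listed start) were at hand for 40 of the 52 genes, with 53 starts. Capitals mark the palindrome in which matches to the NF-kB consensus on both strands overlap; each stretch has 60 bases and is written 5′ to 3′ along its gene.
CXCL1 (chr4:73869289-73869348, plus strand): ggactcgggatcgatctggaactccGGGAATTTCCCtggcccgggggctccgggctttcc
CXCL2 (chr4:74099239-74099298, minus strand): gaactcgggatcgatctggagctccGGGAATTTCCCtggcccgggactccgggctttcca
CXCL3 (chr4:74038734-74038793, minus strand): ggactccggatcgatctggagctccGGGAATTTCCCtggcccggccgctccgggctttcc
CXCL5 (chr4:73998734-73998793, minus strand): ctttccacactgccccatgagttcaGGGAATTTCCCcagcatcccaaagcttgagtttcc
CXCL6 (chr4:73836563-73836622, plus strand): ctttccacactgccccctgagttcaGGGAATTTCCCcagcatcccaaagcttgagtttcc
The element starts 79, 78, 79, 91 and 90 bases before the listed start of CXCL1, CXCL2, CXCL3, CXCL5 and CXCL6. Over these stretches, compared without gaps, CXCL5 and CXCL6 were identical at 59 of 60 bases and CXCL1 and CXCL3 at 56, while CXCL1 and CXCL5 were identical at 27. The NF-kB consensus, searched on both strands, matched 10 of the 53 member promoters, or 18.9%, against 5.21% of all 35116 promoters of this length in the table. Of the 10 genes concerned (CCL20, CCL22, CCR3, CXCL1, CXCL2, CXCL3, CXCL5, CXCL6, CXCL10 and CXCL11), all 10 were in the dim range, as were 36 of the 40 genes with a promoter sequence, so nothing is read from that count. CXCL8 was searched too and held no match to this consensus in its window. The consensus searched begins with GGG, ends with CC and allowed no mismatch, so sites that depart from it were missed. The lack of a match therefore does not show that CXCL8 has no NF-kB site. A match describes letters only and shows no binding.

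A TATA box was searched as TATAAA on the gene's strand. It occurred in 16 of the 53 member promoters, or 30.2%, against 6.80% of all promoters. It stood 31 bases before the start both of CXCL8, at the dim end of the family, and of CCL25, its brightest ligand, so these 2 promoters are shown side by side with TATAAA in capitals.
CXCL8 (chr4:73740509-73740568, plus strand): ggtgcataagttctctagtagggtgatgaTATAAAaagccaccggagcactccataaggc
CCL25 (chr19:8052700-8052759, plus strand): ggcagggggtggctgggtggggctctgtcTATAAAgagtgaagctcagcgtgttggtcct
The AP-1 element TGANTCA, searched on both strands, occurred in 8 of the 53, or 15.1%, against 6.57% of all promoters, and CXCL8 was among the 7 genes with it. Among the genes with no sequence at hand were CCL2, CCL4, CCL5, CCL11, CCL16, CCL17, CCL21, CCR7, CCR8, CCR10 and CX3CL1.

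Among the receptors, CCR10 and CXCR1 were above the edge. CCR10, the receptor of skin and mucosal chemokines on lymphocytes and plasma cells, had log2 levels of 6.49, 6.35 and 6.38 in C2 and 6.22, 6.23 and 6.12 in F3. All 3 C2 arrays lay above all 3 F3 arrays. The means were 6.40 ± 0.07 (SD, n = 3) and 6.19 ± 0.07 (SD, n = 3), and the log2 difference was -0.21 (SE 0.06, 95% interval from -0.35 to -0.07), which makes F3 1.16-fold lower. Its limma adjusted p was 0.731 over all probe sets, so the difference did not pass. In same-numbered arrays the differences were -0.26, -0.11 and -0.26, and a block on the replicate number gave a limma adjusted p of 0.469. CXCR1, a receptor of CXCL8, was at 6.06, 6.07 and 6.13 in C2 and 6.07, 6.20 and 6.13 in F3. These arrays overlapped, with a change of 0.05 (SE 0.06), which was 0.02 without F3 replicate 2 and 0.08 without F3 replicate 1. CXCR2, the neighbouring gene that encodes the second receptor of CXCL8, was at 2.90.

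The other receptors were dim by their mean over 6 arrays. CXCR3, XCR1 and CXCR5 lay closest to the edge, at 5.49, 5.48 and 5.30. CCR7, which guides cells to lymph nodes, was at 4.72, CCR9 at 4.24 and CCR4 at 4.06. CXCR4, the receptor of CXCL12 and one often described on carcinoma cells, was at 3.03, 3.16 and 3.18 in C2 and 3.16, 3.10 and 3.27 in F3, near percentile 14.3 of the table. CCR6, which binds CCL20, had 3.02 and 2.29 on its 2 probe sets, the second being the dimmest of the family.

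Ligands and receptors that are known to bind each other were set side by side. Of 20 such pairs, 0 had both above it, 4 had 1 above it and 16 had neither. With only 3 of 36 ligand genes and 2 of 16 receptor genes above the edge, few pairs could have both there, and nothing is read from the 0. CCL25 was at 6.37 and its receptor CCR9 at 4.24. CCR10 was at 6.30 and its ligand CCL27 at 3.95. CXCR1 was at 6.11 and CXCL8 at 2.81 on its brighter probe set. CCL24 was paired with CCR3 at 3.49. These values are brightness on different probe sets and are set side by side without comparison.

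For the comparison of F3 with C2, 0 of 59 probe sets passed a limma adjusted p of 0.05, where 1 of all 1259 did, or 0.0794%. A block on the replicate number likewise called 0 of the 59, and 2 of all 1259, or 0.159%. At an unadjusted limma p under 0.05 there were 3, or 5.08% of the family, against 5.4% of the table; CCL4 was higher in F3 (1.91% of the table was called in that direction), and CCR10 and CX3CR1 were lower (3.49%). With the block on the replicate number, 4 had an unadjusted limma p under 0.05, or 6.78%, against 8.02% of the table; the added gene was CCL5, with a limma p of 0.0456 in place of 0.083. The arrays of the populations did not overlap for 4 probe sets, or 6.78%, against 10.3% of the table. F3 was lower in CCR10, CX3CR1 and 1 of the CCR6 probe sets (6.51% of the table in that direction) and higher in 1 of the CXCL12 probe sets (3.81%). These shares were below the background or close to it. The family's median change was 0.01, with 33 probe sets positive and 26 negative, beside a median of -0.01 over the whole table, with 571 positive and 688 negative.

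**Figure D2:**
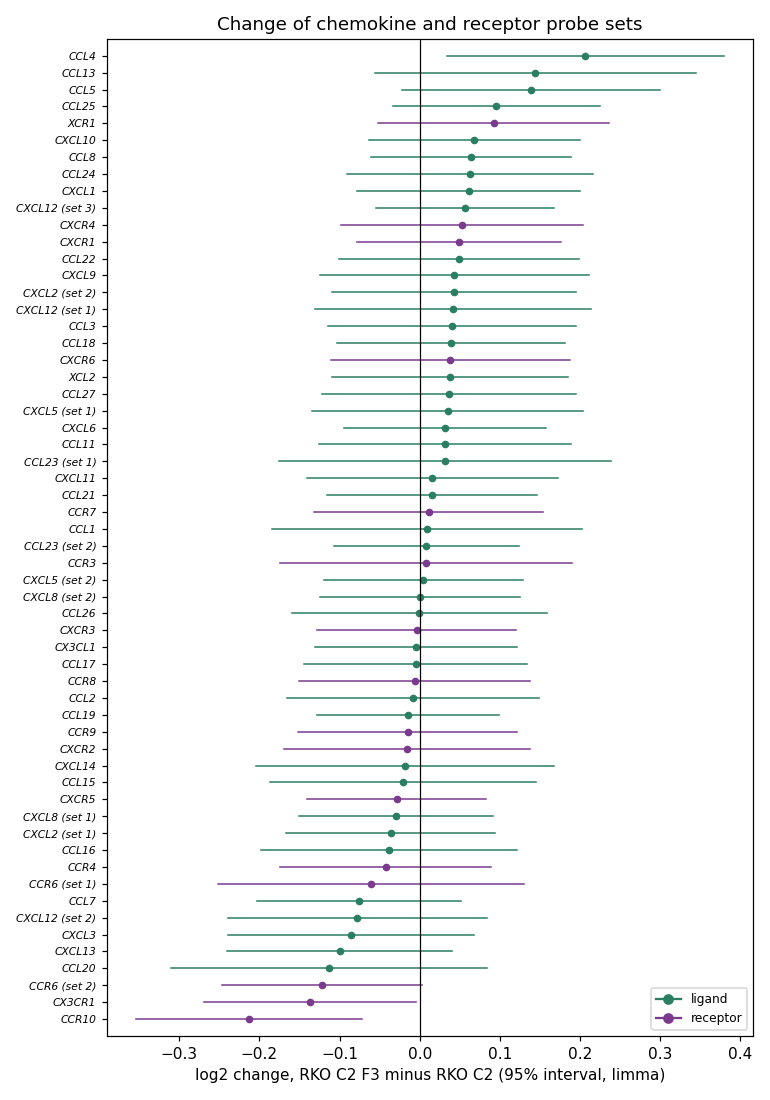
Log2 change of F3 minus C2 for 58 probe sets, ordered by size, as points with the 95% interval from limma; green marks ligands and purple receptors. Every point lies between -0.21 (CCR10) and 0.21 (CCL4), and only 3 intervals, those of CCR10, CCL4 and CX3CR1, leave out 0.

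CCL4, a chemokine made by activated lymphocytes and macrophages, had the largest positive change. Its levels were 3.81, 4.01 and 3.87 in C2 and 4.14, 4.18 and 3.98 in F3, and the highest C2 array exceeded the lowest F3 array. The change was 0.21 (SE 0.08, 95% interval 0.03 to 0.38), or 1.15-fold, with a limma adjusted p of 0.837. The 3 same-numbered differences were 0.34, 0.17 and 0.12. CCL5, a chemokine that attracts T cells and monocytes, had 3.75, 3.59 and 3.63 in C2 and 3.88, 3.83 and 3.68 in F3. These arrays overlapped too, with a change of 0.14 (SE 0.07) and same-numbered differences of 0.13, 0.24 and 0.05.

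CX3CR1, the fractalkine receptor of monocytes and natural killer cells, was at 3.02, 3.08 and 2.92 in C2 and 2.90, 2.85 and 2.85 in F3. The F3 arrays were all below the C2 arrays, with a change of -0.14 (SE 0.06) and a limma adjusted p of 0.894. CX3CL1, its ligand, had a change of -0.0049. The lower CCR6 probe set was at 2.34, 2.30 and 2.41 in C2 and 2.27, 2.22 and 2.19 in F3. Its change was -0.12 (SE 0.05), and that of the other CCR6 probe set was -0.06 with overlapping arrays. Both genes were close to the floor of the table, whose lowest value was 2.08. CCL13, a ligand of CCR2 and CCR3, had the widest spread over the 6 arrays, 0.40, with C2 replicate 1 (4.31) below the other C2 arrays (4.60 each). Its F3 arrays were at 4.67, 4.70 and 4.56, and its change was 0.14 (SE 0.09), or 0.05 with that C2 array left out. CXCL13, the B-cell chemokine, was at 2.57, 2.61 and 2.60 in C2 and 2.60, 2.47 and 2.41 in F3, a change of -0.10 (SE 0.06) that ran from -0.15 without F3 replicate 1 to -0.06 without F3 replicate 3. CCL7, a monocyte chemokine, was at 2.70, 2.62 and 2.56 in C2 and 2.56, 2.55 and 2.54 in F3, a change of -0.08 (SE 0.06), or -0.04 without C2 replicate 1. XCR1, the XCL receptor of cross-presenting dendritic cells, had 5.36, 5.41 and 5.54 in C2 and 5.50, 5.51 and 5.58 in F3, a change of 0.09 (SE 0.06) that ran from 0.06 without C2 replicate 1 to 0.15 without C2 replicate 3. Arrays overlapped for these last 4 genes, and none passed the limma threshold.

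**Figure D3:**
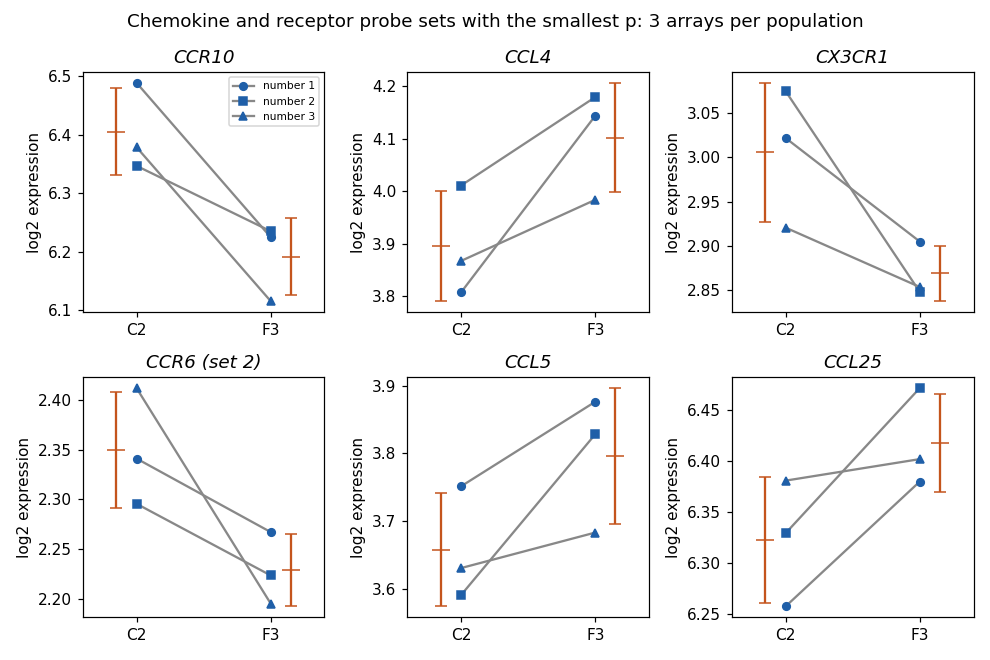
Log2 expression of the 6 probe sets with the smallest limma p in C2 and F3, each vertical axis with its own range; lines join arrays of the same number, and orange bars give the mean and SD of 3 arrays. CCR10, CX3CR1 and CCR6 have no overlap between populations, and CCL4, CCL5 and CCL25 overlap.

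The intervals limit how large a change could have gone unseen. The interval reaching farthest from 0 was that of CCL4, to 0.38 on the log2 scale or 1.30-fold. All 59 intervals lay within 1.5-fold in either direction, and 56 lay within 1.25-fold; the exceptions were CCR10, CCL4 and CCL13. RMA compresses differences of dim probe sets, so for the dim members these bounds apply to the deposited signal and not to RNA amounts.

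For 6 genes more than 1 probe set was measured, and agreement among them varied. CXCL12, a stromal chemokine that binds CXCR4, had 3 probe sets built on different RefSeq transcripts, with mean levels of 4.65, 4.09 and 2.61. The brightest and the dimmest differed by 2.04. Their changes were 0.04, -0.08 and 0.06, and the third set was non-overlapping, with 2.56, 2.57 and 2.61 in C2 and 2.64, 2.63 and 2.64 in F3. The changes of the 2 CXCL2 probe sets were -0.04 and 0.04, with C2 arrays of 5.29, 5.20 and 5.13 and F3 arrays of 5.16, 5.20 and 5.16 for the brighter one. CCL23, CXCL5, CCR6 and CXCL8 each had 2 probe sets that differed by less than 1 log2 unit in level. In CXCL5, CCR6 and CXCL8 the brighter set carries the suffix _x_at, and so does the dimmer CXCL2 set. The probes were not compared with other transcripts, so signal from other genes in these sets was not checked. Small changes here moved with single arrays: the second CXCL12 set went from -0.08 to -0.01 without F3 replicate 1, the dimmer CXCL2 set from 0.04 to 0.0028 without F3 replicate 3, and the brighter CXCL8 set from -0.029 to -0.00057 without F3 replicate 3. None of the 6 genes had all of its probe sets without overlap between the populations.

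Genes that hold or modify chemokines were counted against the same edge, above which 53.2% of all 927 named genes lay. Of 15 measured proteoglycan genes, CD44 among them, 8 lay above 5.50, or 53.3%, among them GPC1 (9.84), SDC1 (9.51) and SDC4 (9.08), cell-surface carriers of heparan sulfate. Of 25 genes of heparan sulfate synthesis and editing, 12 did, or 48.0%, including the polymerase-related EXTL2 (9.11) and the 6-O-sulfotransferase HS6ST1 (8.59), and the sulfatases SULF1 (2.84) and SULF2 (3.49) did not. Both shares were near that of all genes. All 6 measured genes on the list of modifying enzymes did by their mean, with the tyrosylprotein sulfotransferases TPST1 at 6.66 and TPST2 at 7.29. FUT7, the dimmest of them, was close to the edge at 5.55, and its C2 replicate 3 was below it at 5.48. Among 16 measured cytokines and receptors listed for a link to chemokine production, IL10 and TGFB1 included, 4 lay above 5.50, or 25%. These were the interferon gamma receptor chains IFNGR1 (7.65) and IFNGR2 (10.03), IL17RA (6.29) and TGFB1 (9.12), while IL1A was at 2.97 and IL1B at 4.84. TNF was listed, but no probe set carried its symbol. In these 4 lists 0 genes rose and 0 fell at a limma adjusted p of 0.05, and 0 had an unadjusted p under 0.05. Median changes were -0.02, -0.01, -0.01 and -0.04, beside -0.01 for all probe sets. PF4 was at 4.10 and 2.80 on 2 probe sets and PPBP at 2.80, all dim, with changes of at most 0.08.

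**Figure D4:**
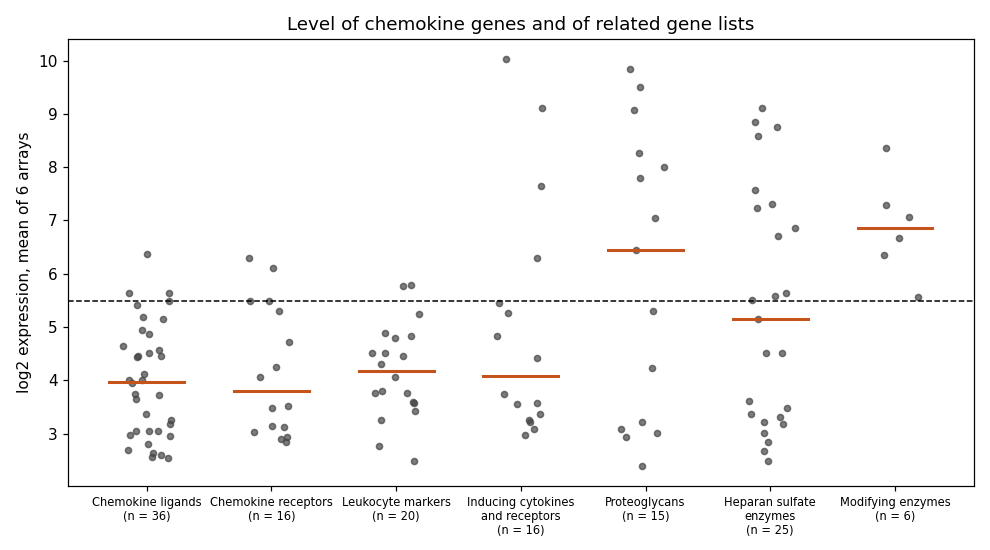
Mean log2 expression over 6 arrays of each measured gene (points, the brightest probe set per gene) for chemokine ligands, chemokine receptors and 5 other gene lists, with list medians as orange bars and the table median of 5.50 as a dashed line. All but 3 ligands and 2 receptors lie below the line, and all 6 modifying enzymes lie above it.

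Markers of other cell types were checked beside the family, since most chemokine receptors are best known on leukocytes. Of the 20 leukocyte genes 0 passed the limma threshold. The list's average per array ran from 4.14 to 4.18 in C2 and from 4.14 to 4.22 in F3. With each gene taken by its brightest probe set, 4 had an unadjusted limma p under 0.05, or 20% against 5.83% of all 927 named genes. The changes of these 4 were 0.23 for CD72, a B-cell protein, 0.17 for KLRC3 and -0.21 for KLRC1, both natural killer cell receptor genes, and 0.17 for SIGLEC5, a myeloid lectin. Their mean levels lay between 2.49 and 4.52, in the dim range. The KLRC3 value is that of its brightest probe set. Other KLRC3 probe sets changed by 0.08, -0.01 and -0.05, with unadjusted limma p of 0.32, 0.88 and 0.57. The changes of CCR10 and CX3CR1 were negative and those of CCL4 and CCL5 positive, and none of these passed. Both populations are labelled as clonal populations from the RKO line, and the labels name no other cells. A part of other cells in these values was not tested. The 5 endothelial and 3 fibroblast genes were all dim and 0 passed; ICAM2, 1 of the 5 endothelial genes or 20%, had an unadjusted limma p under 0.05 and a change of -0.20.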

How the data were processed

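Trizol-extracted total RNA was labelled with biotin as in the Affymetrix manual, per the labels' protocols. The authors deposited log2 expression values made with RMA, a name taken from the submitters' processing notes; the version, the makeup of the probe sets and the arrays processed jointly were not given in the sources used here. This method makes array distributions alike and would hide a shift of most genes. Probe sets were named by RefSeq accession without version: 1043 of 1259 had 1 symbol, and 216 had none and stayed in the tests. F3 and C2 (3 arrays each) were compared in limma 3.58.1 (R 4.3.3), two-sided, with no block, and p-values were adjusted by Benjamini-Hochberg over the whole table. For a gene in a list, the brightest probe set was used. To check pairing, each array's deviations from its group mean were correlated with those of the other group. For replicate numbers 1, 2 and 3, r was 0.52, 0.18 and 0.26. Between arrays whose numbers differ, r ran from -0.38 (C2 replicate 1 with F3 replicate 3) to 0.15 (C2 replicate 2 with F3 replicate 3). All same-numbered values were thus higher than all others. The sample titles also tie same-numbered arrays by a shared tag. The numbers were treated as pairing the arrays only in the alternative fit with the replicate block. SEs, intervals and p-values given without mention of the block leave this pairing out. Precision is limited by the 3 arrays per group.

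The totals count 1 member gene that is not reported here. The members and lists were chosen with earlier results of these data known. Named probe sets were those above the dim range, the 5 with the smallest p in each direction, and genes whose probe sets differed in sign or by over 2 log2 units; other genes are given for context and were chosen after their values were seen. Alternatives were the replicate block, median centring, quantile normalization, variance and weight settings, a filter on dim probe sets, 1 probe set per gene, no _x_at sets, single arrays left out and other dim-range edges. The fitting script was tested on simulated data with 200 of 1259 probe sets changed between F3 and C2. It recovered 95.8% of log2 changes of 0.5 and 99.7% of changes of 1, with 4.67% of calls false. The simulated noise was independent between arrays, without a part shared by same-numbered arrays. The family's largest change was 0.21 in size and none that small was simulated, so these rates do not cover the changes seen here.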

Additional observations from a re-analysis of the deposited data

How the results depend on the processing

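The count of chemokine and receptor probe sets past the threshold was 0 in all 15 alternatives, and the smallest limma adjusted p among them was 0.469, for CCR10 with the replicate block. The block changed no call at an adjusted p of 0.05 among these genes, and at an unadjusted limma p under 0.05 it gave 4 in place of 3 by adding CCL5; over all probe sets it gave 2 in place of 1, as did an adjusted p under 0.10, and leaving out 1 array gave 0 to 2. The number above the dim range depended on where its edge was set: 28 at a log2 level of 4, 12 at 5, 3 at the brightest leukocyte marker (an edge chosen after seeing the data) and 0 at the table's 75th percentile, against 5; single arrays left out gave 5 to 6. Of 20 named probe sets 16 kept their sign in all 10 alternatives. With single arrays left out, the changes of the other 4 turned sign: CCL3 ran from -0.022 (without F3 replicate 1) to 0.10, the brighter CXCL2 set from -0.074 to 0.0032 (without C2 replicate 1), the brightest CXCL12 set from -0.014 (without F3 replicate 2) to 0.12, and the second CXCL8 set from -0.034 (without C2 replicate 3; also negative without F3 replicate 1 and without F3 replicate 3) to 0.021. All were close to 0, and the cause was not tested. The median change of the family ran from -0.0027 to 0.022. CCR10 ran from -0.24 to -0.17 and CCL4 from 0.16 to 0.27 with 1 array left out. Signals near the floor limit what can be said of the dim members.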
